A study of Homo sapiens with 3 samples.

Results

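The genes followed here are the 3 catalytically active DNA methyltransferases DNMT1, DNMT3A and DNMT3B, and the replication-coupled cofactor UHRF1. With them are 5 genes grouped as methyl-CpG readers, namely MBD1, MBD2, MBD3, MBD4 and ZBTB33 (Kaiso), although MBD3 has lost most of its affinity for methylated CpG. Members were found by gene name in the scanner files, which gave 17 probes for these 9 genes among the 17457 genes measured outside the outer columns of the arrays. Of the 17 probes, 1 lay in columns 1 to 9, where the decitabine-labelled array carried raised ratios for most spots, and it is given apart. RNA came from YB5, a line grown from 1 clone of the SW48 colon cancer line that carries a single copy of a GFP reporter whose CMV promoter is silenced by methylation, so every group shares that insertion and the values describe 1 clone. Cells were given decitabine at 25 nM, carboplatin at 20 µM or both, in 4 doses on days 1 to 4, and control cells were given DMSO; all were harvested on day 6. Each treatment was measured on 1 two-colour Agilent array with treated RNA in Cy3 and control RNA in Cy5, the dyes were not exchanged, and all 3 arrays lay on 1 slide. No treatment was repeated, so the values carry no error between replicates and were not tested, and a probe's preference for a dye cannot be told apart from an effect of treatment. Whether the control channels hold the same RNA extract is not given in the sources used here.

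DNA methylation is copied at each replication fork, where UHRF1 binds hemimethylated CpG and recruits DNMT1 to methylate the new strand, while DNMT3A and DNMT3B can methylate sites that carry no mark. Several MBD proteins and Kaiso bind methylated DNA, and MBD2 and Kaiso bring histone deacetylase complexes to it. Decitabine is a cytidine analogue that is built into DNA and traps DNMT1 on it, which removes DNMT1 protein. The arrays measured mRNA, and neither protein nor methylation was analysed here.

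The sequences below show what was measured for the members that the results turn on. They are the array probes of DNMT1, of UHRF1 (the dimmer of its probes) and of MBD3 (the probe with the highest ratio among the members), in lower case and 5′ to 3′ along the transcript. By the scanner files, on GRCh37, the DNMT1 probe lies at chr19:10246808-10246867 on the minus strand, the UHRF1 probe at chr19:4956748-4956807 on the plus strand and the MBD3 probe at chr19:1582639-1582698 on the minus strand.
DNMT1: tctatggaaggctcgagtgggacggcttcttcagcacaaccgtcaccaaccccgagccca
UHRF1: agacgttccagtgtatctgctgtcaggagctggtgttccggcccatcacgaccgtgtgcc
MBD3: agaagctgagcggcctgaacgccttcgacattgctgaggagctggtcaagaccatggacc
The brighter UHRF1 probe lies farther along the gene, at chr19:4962065-4962124, and the brighter MBD3 probe likewise at chr19:1576867-1576926. Reverse transcription was primed on the poly(A) tail by the labelling protocol. Exon and UTR annotation on this build was not used here.

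The stretches next to the transcription start of UHRF1 and DNMT1 are shown because these partners moved in the same direction on all 3 arrays. They come from RefSeq on GRCh38.p14, run from 120 bases before the start to 20 bases after it, and lie at chr19:4909381-4909520 on the plus strand (the first of 3 UHRF1 starts listed) and chr19:10194934-10195073 on the minus strand (DNMT1). Capitals mark a match to an 8-letter E2F-type motif.
UHRF1 promoter: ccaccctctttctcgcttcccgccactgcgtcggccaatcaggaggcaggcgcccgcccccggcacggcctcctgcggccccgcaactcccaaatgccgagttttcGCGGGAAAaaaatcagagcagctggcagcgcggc
DNMT1 promoter: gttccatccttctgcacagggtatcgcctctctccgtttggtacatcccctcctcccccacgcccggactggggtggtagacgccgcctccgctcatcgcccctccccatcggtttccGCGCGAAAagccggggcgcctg
The motifs searched, on both strands, were TTTCCCGC, TTTCGCGC, TTTGGCGC and TTTGCCGC, in windows from 250 bases before to 50 bases after each start. UHRF1 held TTTCCCGC on the opposite strand at bases -14 to -7 from its first start, and DNMT1 held TTTCGCGC on the opposite strand at bases -2 to 6. The second UHRF1 start also had a match, TTTCGCGC at bases -160 to -153, and the third had none. Among the members, 2 of 9 genes and 3 of 16 windows held one of these motifs, against 3.31% of 35116 windows over all genes. All 9 members matched the RefSeq promoter table. Of their 16 windows, 15 held more CpG than the median window of 14, with 36, 40 and 46 at the UHRF1 starts and 30 at DNMT1. The exception was the 1 window listed for DNMT3B, with 3. Any DNMT3B start that is not listed was not searched for CpG or motifs. A match is a run of letters and was not tested as a binding site.

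Some facts about the arrays bear on all values. The 264 gene probes spotted 10 times gave an SD of the log2 change of 0.0776, 0.0747 and 0.0758 outside columns 1 to 9 on the decitabine-labelled, carboplatin-labelled and combination arrays, which is the technical error within an array. In columns 1 to 9 the median change was 0.75 on the decitabine-labelled array and -0.03 and 0.01 on the others. Control channels of different arrays differed with an SD of 0.15 to 0.165 log2 units over the 17457 genes. The labels of the single-drug arrays are in doubt. Among genes lowered by carboplatin when these arrays were first analysed, 53 were listed under cell division, cell cycle or DNA replication. They are only part of the genes counted as lowered then. Of these 53, 41 were at least 1.5-fold lower on the decitabine-labelled array, 4 on the carboplatin-labelled array and 37 on the combination array. That list was chosen on these arrays and holds UHRF1, so its count is no independent evidence that a drug lowered UHRF1. A list chosen as lowered on the carboplatin array would be low on that array, so the counts do bear on the labels. Whether the single-drug files are exchanged is not settled here. The arrays are called by their labels (decitabine-labelled, carboplatin-labelled, and the combination array for both drugs). Of 10 colon epithelial markers measured, 7 were well above background in the control channel of all 3 arrays, including CDX2, VIL1 and CDH17. The epithelial marker CDX1 was above it on none, as were the blood marker PTPRC and the vessel markers PECAM1 and CDH5. CD3E and COL1A1 were above background on all 3, and their part in the results was not tested.

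Of the 9 members, UHRF1 had the lowest value on the decitabine-labelled and combination arrays. On the carboplatin-labelled array UHRF1 was above its control, and the sign turned when each array was only centred on its median, with no correction for brightness. DNMT1 had the same signs as UHRF1 on all 3 arrays, with the same exception; it was nearer to 0 on the decitabine-labelled and combination arrays and about level with UHRF1 on the carboplatin-labelled array (0.33 and 0.31). Each gene was represented by its brightest probe outside columns 1 to 9. On that basis no member was at least 1.5-fold up on any array. At least 1.5-fold down were 2 of 9 on the decitabine-labelled array (UHRF1, and ZBTB33 by 1 of its 2 probes), 0 on the carboplatin-labelled array and 1 on the combination array (UHRF1). Under median centring these counts were 8, 2 and 5, with none up. Median centring also moved the median of all genes to -0.22, -0.14 and -0.10, and no share over all genes is given for it. In the main processing, 4.89% of all 17457 genes were at least 1.5-fold up and 5.09% down on the decitabine-labelled array. The shares were 2.77% and 1.39% on the carboplatin-labelled array, and 7.33% and 5.88% on the combination array. The members' median log2 change was -0.18, 0.03 and -0.15 on these arrays, against -0.02, -0.001 and 0.004 over all genes. Below 0 were 8 of 9 members on the decitabine-labelled array, with MBD1 as the exception, and 4 and 6 of 9 on the others. Of all 17457 genes, 9268, 8780 and 8624 were below 0 on these arrays. The members' counts rest on few genes and were not tested.

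**Figure D1:**
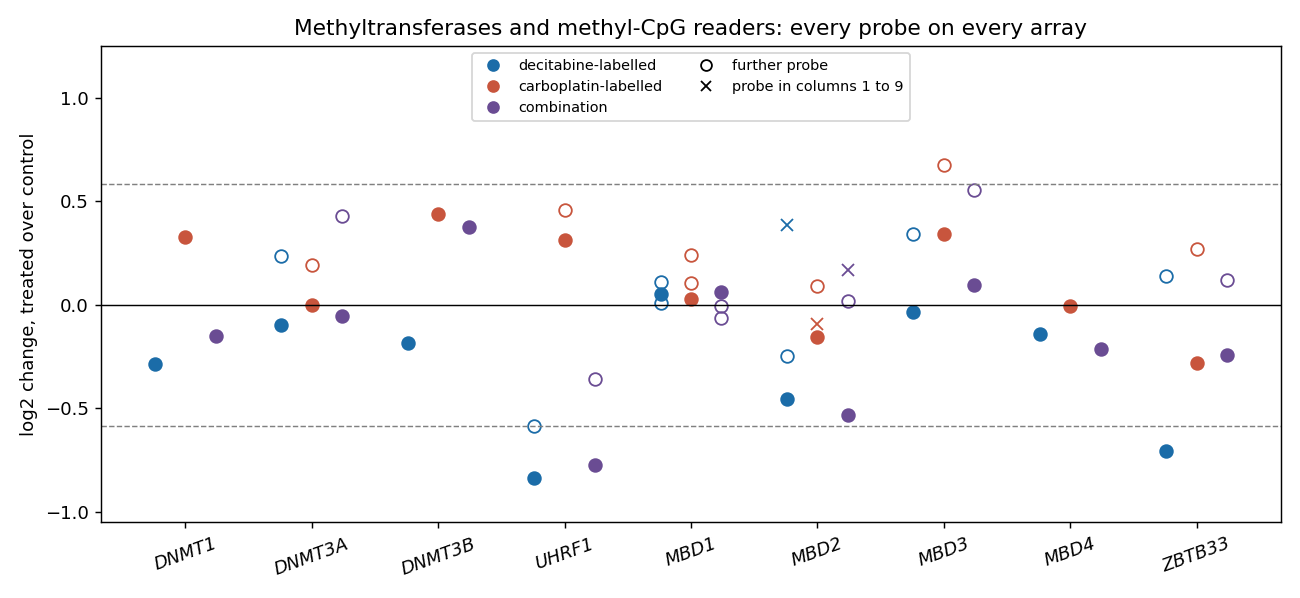
Log2 change (treated over control, vertical axis) of each of the 17 probes on the 3 arrays, by gene. Filled circles are the brightest probe outside columns 1 to 9, open circles further probes, crosses the MBD2 probe in column 2, and dashed lines 1.5-fold. UHRF1 lies lowest on the decitabine-labelled and combination arrays, at -0.84 and -0.78, and at 0.31 on the carboplatin-labelled array, a sign that turns under median centring.

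UHRF1 recognises hemimethylated CpG through its SRA domain and ubiquitylates histone H3 as the signal that DNMT1 reads. On the log2 scale its brighter probe had a control level of 11.69, 11.80 and 11.89 on the decitabine-labelled, carboplatin-labelled and combination arrays. The treated level was 10.85, 12.11 and 11.11. The treated level lay below all 3 control levels on the decitabine-labelled and combination arrays and above all 3 on the carboplatin-labelled array. In log2 change this was -0.84, 0.31 and -0.78, or 0.559, 1.24 and 0.584 times the control. The value on the decitabine-labelled array ranked 336 from the lowest of 17457 genes, and that on the combination array ranked 539.

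The dimmer UHRF1 probe gave the same signs at -0.584, 0.46 and -0.36, short of 1.5-fold on every array. On the decitabine-labelled array it lay almost at the threshold, which is 0.585 in log2 size. The authors' value for this probe there was -0.6. Both probes were well above background in both channels of every array. The probes differed by 0.26, 0.14 and 0.42 log2 units, where the SD of repeated spots was 0.0747 to 0.0776. With the median over probes in place of the brightest, UHRF1 was past 1.5-fold on the decitabine-labelled array, at -0.71, but not on the combination array, at -0.57. The brighter probe lies in column 12, near the disturbed edge, and spots in columns 10 to 20 of the decitabine-labelled array had a median change of -0.01. The brightest probes of MBD2 and ZBTB33 lie among these columns too, in columns 13 and 20. By their brightest probes UHRF1, ZBTB33 and MBD2 were the lowest members on that array, and the part of nearness to the edge was not tested.

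DNMT1 keeps methylation in place after replication and is the enzyme that decitabine depletes as a protein. Its 1 probe had a control level of 12.20, 12.14 and 12.14 and a treated level of 11.91, 12.46 and 11.99. The treated levels lay below, above and below all 3 control levels. The log2 change was -0.28, 0.33 and -0.15, and none of the 3 reached 1.5-fold. Control levels of DNMT1 spanned 0.06 log2 units, less than any of these changes. The rise on the carboplatin-labelled array turned to -0.17 under median centring, which applies no correction for brightness.

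The single-drug arrays differed from each other more for the maintenance pair and for DNMT3B than for most genes. Of all genes 1.67%, 7.53% and 7.19% had a gap as large as those of UHRF1, DNMT1 and DNMT3B. ZBTB33, MBD3 and MBD2 also differed more than most genes, with shares of 15.6%, 19.5% and 27.7%. The log2 change on the decitabine-labelled array minus that on the carboplatin-labelled array was -1.15 for UHRF1, -0.61 for DNMT1 and -0.62 for DNMT3B. Thus 3 of 9 members were at least 1.5-fold apart, where 8.2% of all genes were. By the authors' values 2 of 9 were, with DNMT3B at -0.25 and 0.33 on these arrays and no longer 1.5-fold apart, and with processed signals 4 of 9 were. A dye preference that is equal on all arrays would drop out of this difference.

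**Figure D2:**
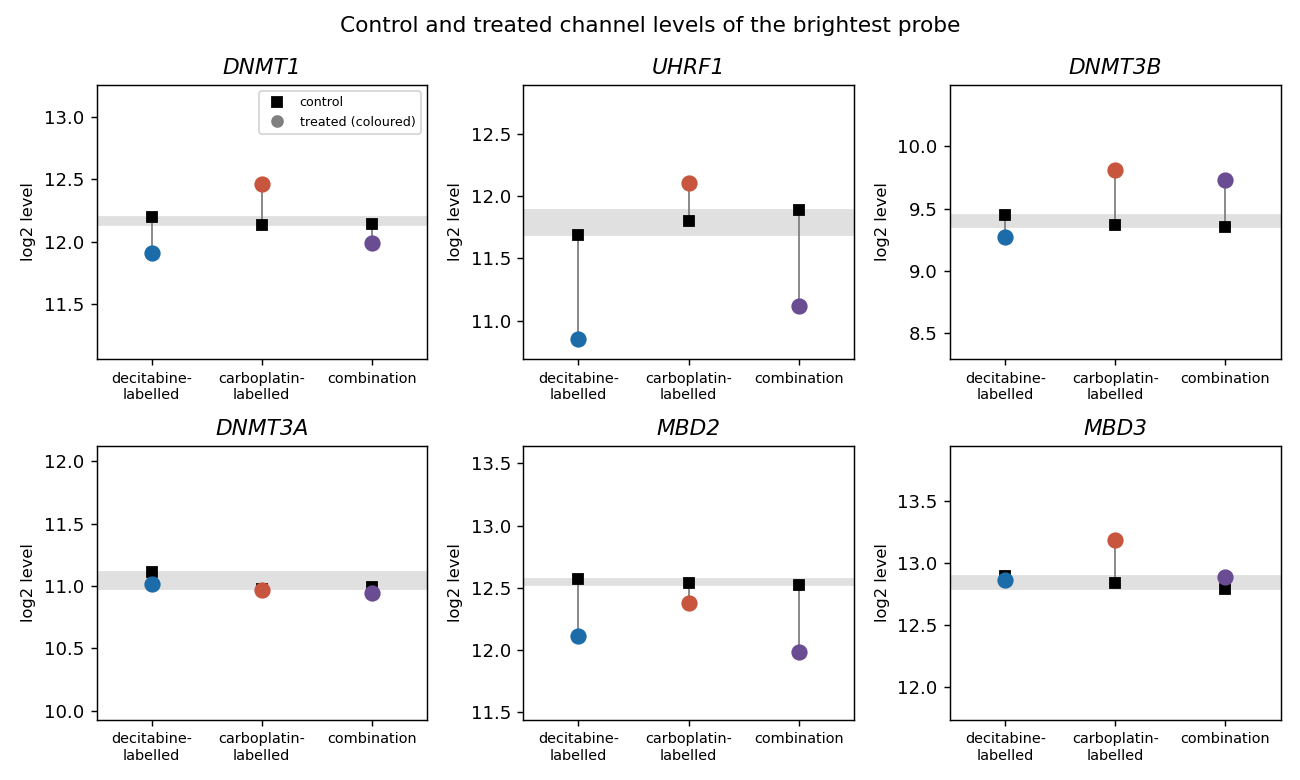
Control (black squares) and treated (coloured circles) log2 levels of the brightest probe of 6 members on the 3 arrays, after scaling between arrays. The grey band spans the 3 control levels, and each panel covers the same height. The treated level of UHRF1 is 10.85 and 11.11 on the decitabine-labelled and combination arrays, under its band of 11.69 to 11.89, while DNMT3A changes by -0.10, -0.002 and -0.05.

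DNMT3A and DNMT3B set new methylation in development and help DNMT1 in cancer cells. The DNMT3A probe on transcript NM_175629 had control levels of 11.11, 10.97 and 10.99 and treated levels of 11.01, 10.97 and 10.94. Its log2 changes of -0.10, -0.002 and -0.05 were within the span of its control levels, 0.14. A dimmer probe on NM_175630 gave 0.23, 0.19 and 0.43, but its control channel alone varied by 0.60 between arrays, more than any of these changes. DNMT3B had control levels of 9.45, 9.37 and 9.36 and treated levels of 9.27, 9.81 and 9.73. It was lower on the decitabine-labelled array, at -0.18, and higher on the carboplatin-labelled and combination arrays, at 0.44 and 0.38. The signs of DNMT3B were the same in all 9 alternatives, although under median centring the 2 positive values fell to 0.08 and 0.03. By the brightest probes, DNMT3B was the member with the highest change on each of the carboplatin-labelled and combination arrays, and it did not reach 1.5-fold on either. The dimmer MBD3 probe was higher on both, at 0.67 and 0.55, and the dimmer DNMT3A probe was higher on the combination array.

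The MBD proteins share a methyl-CpG binding domain but not a function. MBD2 binds methylated promoters and recruits the NuRD complex, which holds histone deacetylases and a chromatin remodeller. Its brightest probe had control levels of 12.57, 12.54 and 12.52 and treated levels of 12.11, 12.38 and 11.99. All 3 treated levels lay below all 3 control levels. The log2 change was -0.46, -0.16 and -0.53, which is 0.729, 0.896 and 0.692 times the control, short of 1.5-fold. It reached 1.5-fold down in 3 of 9 alternatives on the decitabine-labelled array and in 5 of 9 on the combination array. On both arrays these include the processed signals and the scanner's ratio, which gave the same values. The second MBD2 probe, at -0.25, 0.09 and 0.02, was not well above background in the treated channel of any array. The third MBD2 probe, on transcript NM_015832, is the one in column 2. It read 0.38, -0.09 and 0.17. Its control channel was not well above background on any array, and its treated channel was so only on the combination array. With the median over the 2 probes outside the edge, MBD2 was at -0.35, -0.03 and -0.26.

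MBD3 is the NuRD subunit that has lost most of its affinity for methylated CpG. Its brighter probe had control levels of 12.90, 12.84 and 12.79 and treated levels of 12.86, 13.18 and 12.88. The log2 change was -0.03, 0.34 and 0.10. The dimmer probe, whose sequence is given above, lay at 0.34, 0.67 and 0.55, and the 1.6-fold higher level on the carboplatin-labelled array was the only positive change of any member probe that reached 1.5-fold. Both probes were highest on the carboplatin-labelled array, and they differed from each other by 0.33 to 0.46 log2 units. On that array the value for MBD3 was -0.17 under median centring.

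MBD1 represses transcription with the H3K9 methyltransferase SETDB1. Its 3 probes stayed between -0.06 and 0.24 over all arrays, the brightest at 0.05, 0.03 and 0.06. MBD4 is a glycosylase that removes thymine and uracil from mismatched CpG sites. It was at -0.14, -0.01 and -0.22, with control levels that spanned 0.06. Neither gene came near 1.5-fold.

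ZBTB33 encodes Kaiso, a zinc finger protein that binds methylated CpG pairs and recruits the NCOR corepressor. Its brighter probe had control levels of 10.21, 10.19 and 10.28 and treated levels of 9.504, 9.91 and 10.04. The log2 change was -0.71, -0.28 and -0.24, below 0 on every array. The dimmer probe read 0.14, 0.27 and 0.12, above 0 on every array. The probes of this gene thus disagreed in sign, by 0.85, 0.55 and 0.36 log2 units, and no direction is given for ZBTB33. The dimmer probe had control signals of only 154 to 172 units before background correction, though both probes were well above background in both channels. With the median over both probes ZBTB33 lay at -0.28, -0.01 and -0.06.

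**Figure D3:**
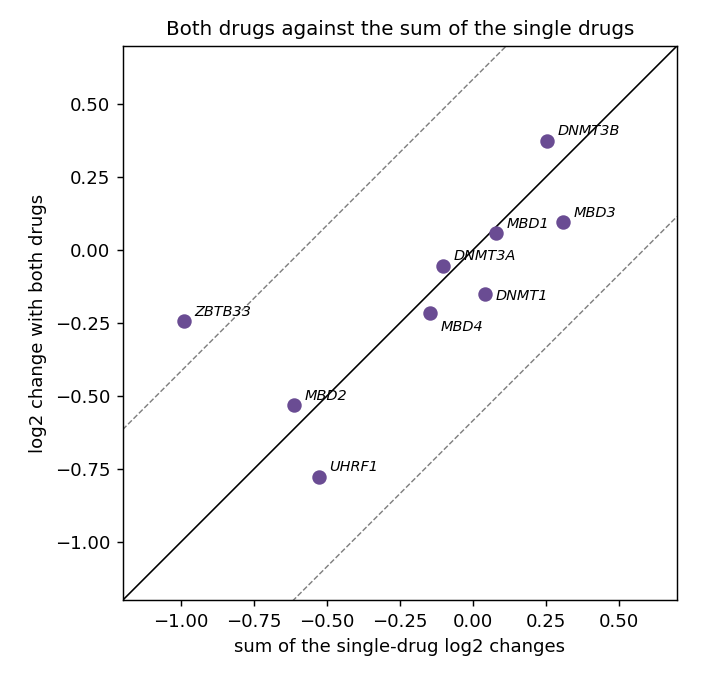
Log2 change on the combination array (vertical axis) against the added log2 changes of both single-drug arrays (horizontal axis) for the brightest probe of the 9 members. The solid line marks equality and the dashed lines a 1.5-fold departure. ZBTB33 is 0.75 above the line and the other 8 members lie within 0.25 of it; the side on which UHRF1 lies turns in 4 of 9 alternatives.

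The combination was compared with the sum of the single drugs on the log2 scale, which multiplies their folds. The 3 arrays carry controls that may be the same extract, so the sum counts any error shared by the controls more than once. For UHRF1 the sum was -0.53 and the combination array gave -0.78, a difference of -0.25. The sign of this difference held in 5 of 9 alternatives and turned in the others, to 0.04 in the authors' table, 0.16 with processed signals or the scanner's ratio and 0.32 under median centring, so no direction is given for it. For DNMT1 the sum was 0.04 and the combination -0.15, a difference of -0.19, which turned to 0.39 under median centring and was -0.07 in the authors' table. For MBD2, -0.61 and -0.53 differed by 0.08, and for DNMT3B, 0.25 and 0.38 differed by 0.12. Only ZBTB33 was at least 1.5-fold away, by 0.75, where 3.23% of all genes were. That value came from the brighter probe alone, and with the median over probes the difference was 0.23. Set against the single drugs, the log2 change of UHRF1 on the combination array differed by 0.06 from that on the decitabine-labelled array and by -1.09 from that on the carboplatin-labelled array. The first of these depends on the processing, since the combination and decitabine-labelled arrays stood at -0.81 and -1.29 with processed signals and at -0.74 and -1.03 in the authors' table.

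Partners, antagonists and cofactors of the members were taken as a list of 40 genes, of which 37 had a probe outside columns 1 to 9 (GATAD2B, HDAC2 and MBD5 had none). At least 1.5-fold up or down were 4 and 4 of 37 on the decitabine-labelled array, 0 and 0 on the carboplatin-labelled array, and 3 and 5 on the combination array. Over all 17457 genes the shares up and down were 4.89% and 5.09%, 2.77% and 1.39%, and 7.33% and 5.88% on these arrays. Under median centring the partners' counts were 2 and 21, 1 and 15, and 1 and 18. No share over all genes is given for that setting. With the median over probes no partner was down on any array. Each of the lower values named next thus rests on the brightest probe of its gene. The partners' medians were -0.18, -0.04 and -0.17. Among relatives of the members, UHRF2, the paralogue of UHRF1, was lower on every array at -0.77, -0.53 and -0.67, and ZBTB38, a methyl-CpG binding protein of the Kaiso family, at -0.80, -0.43 and -0.74. CDCA7, which activates the remodeller HELLS, lay at -0.59, -0.35 and -0.61. Of the corepressor subunits, MTA3 was at -0.64, -0.58 and -0.69 and SIN3A at -0.41, -0.36 and -0.59. On the carboplatin-labelled array these 5 genes were below 0, while UHRF1 was at 0.31, or at -0.17 under median centring.

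Higher in the list were GADD45A, a p53 target linked to DNA repair and demethylation, at 1.93, 0.23 and 1.83, and PCNA, the sliding clamp that holds DNMT1 at the fork, at 0.68, -0.12 and 0.40. AHCY, which clears the methylation by-product S-adenosylhomocysteine, was at 0.64, 0.48 and 0.78. MTA2, a NuRD subunit with MBD2 or MBD3, was at 2.20, 0.32 and 0.81. Its control level was 9.88 on the decitabine-labelled array and 11.36 and 11.32 on the others, so the first MTA2 value moves with its control channel. The TET dioxygenases, which oxidise methylcytosine, stayed within 1.5-fold on every array.

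UHRF1 and DNMT1 are transcribed mainly in S phase, and a list of 32 S-phase genes was read beside them, of which 29 had a probe outside columns 1 to 9. At least 1.5-fold lower were 8 of 29 on the decitabine-labelled array, 0 on the carboplatin-labelled array and 7 on the combination array. Higher by that much were 0, 2 and 0. Over all genes 5.09%, 1.39% and 5.88% were lower and 4.89%, 2.77% and 7.33% higher. Under median centring 25, 4 and 19 of the list were lower and none higher, and no share over all genes is given for it. CHAF1A, GINS2, GINS3, POLA1, POLD3, POLE2, RFC3 and TK1 are also among the genes listed as lowered by carboplatin when these arrays were first analysed. The S-phase counts are therefore not independent of a choice made on these arrays. The medians were -0.39, 0.17 (-0.31 under median centring) and -0.31. Below 0 were 26, 7 and 25 of 29, against 9268, 8780 and 8624 of all 17457 genes. The lowest over all arrays were MCM3, a subunit of the replicative helicase, at -1.01, -0.11 and -0.97, GINS3 at -0.80, -0.09 and -0.86, and POLA1 at -0.51, -0.31 and -0.63. The highest were CDT1, a licensing factor, at 0.25, 0.69 and 0.41, GINS4 at 0.36, 0.36 and -0.02, and POLA2 at 0.10, 0.39 and 0.07. Fewer cells in S phase and less RNA per cell cannot be told apart in these bulk samples, and the part of the cell cycle in the UHRF1 and DNMT1 values was not tested. Housekeeping genes, 18 in number, had medians of -0.19, -0.20 and -0.27, with 3, 5 and 4 at least 1.5-fold lower. Under median centring 12, 12 and 11 were lower, with medians of -0.81, -0.80 and -0.81, and with the median over probes 0, 1 and 0 were, with medians of -0.075, -0.099 and -0.092.

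**Figure D4:**
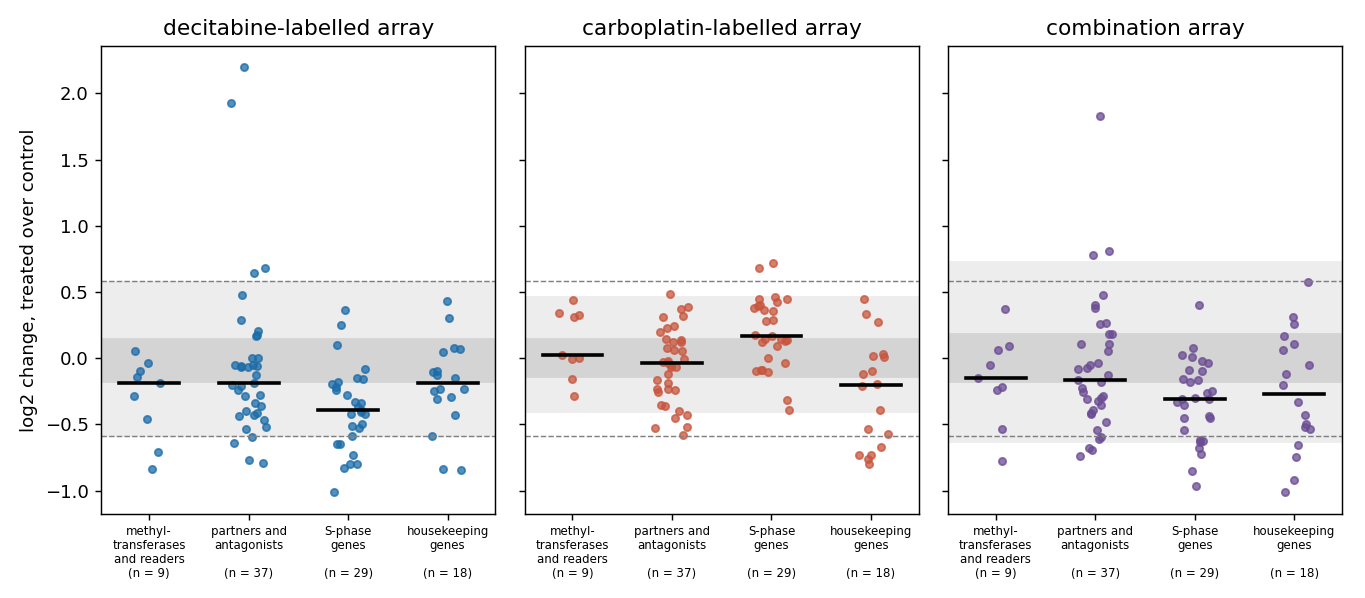
Log2 change (treated over control) of the 9 members, 37 partners and antagonists, 29 S-phase genes and 18 housekeeping genes on each array, with black bars at the medians. Grey bands hold the middle 50% (dark) and 90% (light) of all 17457 genes, and dashed lines mark 1.5-fold. The S-phase median is -0.39 and -0.31 on the decitabine-labelled and combination arrays and 0.17 on the carboplatin-labelled array, and the last turns below 0 under median centring.

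The genes nearest to UHRF1 and DNMT1 over the 3 log2 changes were taken from 12168 genes well above background on all arrays, by Euclidean distance. Nearest to UHRF1 were SKA3, a kinetochore protein, at -0.75, 0.26 and -0.77 (distance 0.105), the transcription factor KLF8 (0.109) and the choline transporter-like SLC44A2 (0.146). Nearest to DNMT1 were GTF2A1, a subunit of TFIIA, at -0.28, 0.34 and -0.16 (0.016), RAB35 (0.036) and SMURF2P1-LRRC37BP1 (0.049). With 3 arrays these distances say little on how alike the patterns are.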

How the data were processed

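The deposited scanner files hold spot intensity in both channels, read by Agilent Feature Extraction (9.5.3.1 in the file headers, 8.5.1.1 in the submitters' processing notes), with mean and median signals not background subtracted and processed signals that are. The log10 ratio in the deposited files is red (control) over green (treated), and was turned round. The authors' table holds log2 ratios per probe, deposited after loess in limma and agilp; its direction is not stated, and it correlated with treated over control at r = 0.838 to 0.936.

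Here the mean signals were corrected by normexp (offset 50) and loess normalized in each array with limma 3.58.1 in R 4.3.3. Control spots and outlier flags were left out. Channel levels were scaled by Aquantile. Of 41000 probes, 29381 matched RefSeq, giving 17457 genes outside columns 1 to 9, 6627 with more than 1 probe; 4093 probes lay only in those columns. Of the 17 member probes, 15 were well above background in both channels on all arrays, and none was saturated. The threshold of 1.5-fold follows the methods. No test was possible with 1 array per treatment, whose number limits the precision. Alternatives were the background step, offset, processed signals, scanner ratio, median centring, the authors' table, refitting without columns 1 to 9, the median over probes, and probes well above background only. For members the last gave the main values, and the scanner ratio gave those of the processed signals. Counts out of 9 alternatives for a member thus rest on fewer distinct settings. Named were all members, partners past 1.5-fold on any array, 3 genes nearest to UHRF1 and to DNMT1, and the 3 lowest and 3 highest S-phase genes by summed change. The normalization was checked on simulated arrays. Members and lists were chosen with earlier results of these data known.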

Additional observations from a re-analysis of the deposited data

How the results depend on the processing

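Over 9 alternatives, 40 recomputed counts and medians of the members and partners moved by more than 1.5 times or the error of repeated spots and 140 did not; of the other values (single members, S-phase and housekeeping genes) 119 moved and 367 did not. No 1.5-fold call changed sign. UHRF1 was past 1.5-fold down on the decitabine-labelled array in 9 of 9 alternatives, from -1.37 to -0.71, and on the combination array in 8 of 9, from -1.22 to -0.57. For every member the setting of probes well above background only gave the main values, since it picked the same probes. The scanner's log ratio gave the members the same values as the processed signals. All alternatives but the median over probes read the brighter UHRF1 probe alone. The dimmer UHRF1 probe was short of 1.5-fold on both arrays in the main processing, though almost at it on the decitabine-labelled array. Median centring moved the most, and it alone shifted the median of all genes by over 0.1, to -0.22, -0.14 and -0.10 on the decitabine-labelled, carboplatin-labelled and combination arrays. Under it 8, 2 and 5 members were at least 1.5-fold down, with medians of -0.66, -0.28 and -0.61, and 3 members were that far from the sum of the single drugs; 21, 15 and 18 partners were down and 2, 1 and 1 up, with medians of -0.69, -0.51 and -0.54. With processed signals, and with the scanner's log ratio, 7 and 2 partners were down on the single-drug arrays and 2 members on the combination array. With median signals, and with an offset of 16, 1 partner was down on the carboplatin-labelled array, and with median signals 2 members were down on the combination array. In the authors' table the median of the members was -0.29 on the decitabine-labelled array, 7 partners were down there, 1 was up and 3 down on the carboplatin-labelled array with a median of -0.16, and 2 members were down on the combination array. With the median over probes, 1 member was down on the decitabine-labelled array and 0 on the combination array, with medians of 0.10 on the carboplatin-labelled array and -0.061 on the combination array; 0 partners were down on the decitabine-labelled and combination arrays, with medians of -0.071 and -0.050, and 0 members were 1.5-fold from the sum. The causes were not tested. No paired analysis was possible because each treatment has 1 array. No array could be left out. Dim probes limit the second values of DNMT3A, MBD2 and ZBTB33.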
